A study of Homo sapiens with 8 samples.

Results

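EPZ-6438 (tazemetostat), an inhibitor of the catalytic domain of the histone methyltransferase EZH2, was compared with the vehicle DMSO in SUDHL6 cells by RNA sequencing. The comparison used the 2 EPZ-6438 and 2 DMSO libraries held in 1 deposited table, 4 of the 8 libraries in the series, and all 18320 genes of that table. SUDHL6 is an established human B-cell lymphoma line of the germinal-centre type, and is known to carry a gain-of-function mutation in the EZH2 catalytic domain. EPZ-6438 was given at 2.5 µM for 18 h, and the labels print the same concentration and time for DMSO. The other libraries came from cells given 2.5 µM of MS8815N, described as an analog that is not a degrader, or of MS8815, an EZH2 degrader, for 18 h. The labels name 2 library kits without tying either to a library. They speak of duplicates of 1 cell line and do not say whether these were separate cultures, so each p-value reflects the spread of these libraries alone.

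EZH2 is the catalytic subunit of polycomb repressive complex 2 (PRC2), in which EED and SUZ12 are the other core members, and it methylates lysine 27 of histone H3. The methyl mark holds developmental and differentiation genes silent, and in germinal-centre B cells it keeps cell-cycle inhibitors and plasma-cell regulators low. An inhibitor blocks new methylation while the complex and the marks already placed remain, so the mark is lost mainly as cells divide.

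Among the genes called were 2 copies of the histone H3 gene whose product is the substrate of EZH2, and their shared sequence is shown because it bears on how their reads can be counted. The capitals mark the codon of lysine 27, counted from the residue after the initiator methionine, in windows of the coding sequence from GENCODE 29 on GRCh38. The HIST2H3A window lies at chr1:149852706-149852768 on the plus strand and the HIST2H3C window at chr1:149841044-149841106 on the minus strand.
HIST2H3A: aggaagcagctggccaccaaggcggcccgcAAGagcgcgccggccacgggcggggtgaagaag
HIST2H3C: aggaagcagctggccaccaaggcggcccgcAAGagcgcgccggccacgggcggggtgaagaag
The windows are identical, and so are the annotated transcripts over their whole length of 1656 nt, with 0 differences.

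Depth was estimated at 30.5 and 26.0 M reads for the EPZ-6438 libraries and 30.9 and 31.7 M reads for the DMSO libraries. All levels below are normalised read counts, recovered from the deposited transformed values, and compare 1 gene across libraries. Replicates lay close together, with a median difference of 0.063 between EPZ-6438 replicates and 0.064 between DMSO replicates on the log2 scale over the upper 50% of genes by level (9160 genes). B-cell identity genes were high in every library, with a summed level of 153356 and 154056 in EPZ-6438 libraries, against 152999 and 153696 in DMSO libraries. MS8815 libraries stood apart from the others in markers of other cell types. They enter no test here, and their values are printed beside results that share those genes.

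Limma was run over all 18320 genes with a threshold of 0.05 on the adjusted p, and 6 genes passed, which is 0.0328% of those tested. SYNE2, HERC1 and HIST2H3C were higher with EPZ-6438 (0.0164%), and CAND1, FRYL and HIST2H3A were lower (0.0164%). At an unadjusted p under 0.05 there were 3076 genes (16.8%), of which 1322 were higher (7.22%) and 1754 lower (9.57%). The groups did not overlap in 8811 genes (48.1%), which were split evenly, with 4443 higher (24.3%) and 4368 lower (23.8%). The log2 fold change of EPZ-6438 over DMSO had a median of 0.01 over all genes. In the upper 50% of genes by level its median was -0.04, and 90% of those genes lay between -0.24 and 0.25. Only 39 genes of the upper 50% were at least 1.5-fold higher with groups that did not overlap (0.426%), and 11 were lower by that measure (0.12%). Limma called 283 genes (3.09% of 9160) once the lower 50% of genes by level was removed, 64 higher (0.699%) and 219 lower (2.39%), so the share of calls that were higher depends on the filter. Limma called 0 genes without any single one of the 4 libraries, with 2143 to 2403 genes at an unadjusted p under 0.05 in those fits.

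**Figure D1:**
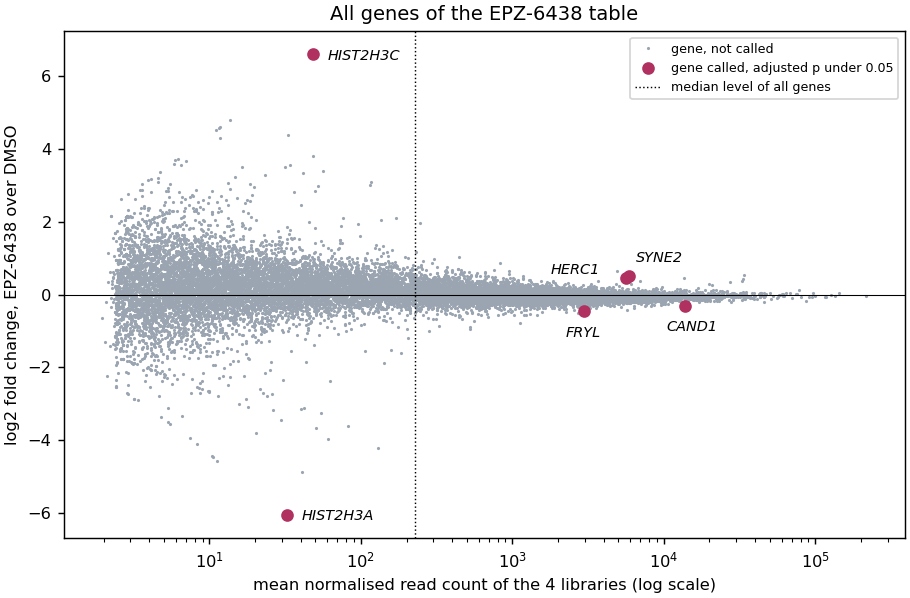
Log2 fold change of EPZ-6438 over DMSO (vertical axis) against the mean normalised read count of the 4 libraries (horizontal axis, log scale) for 18320 genes, with the 6 called genes in red and named. SYNE2, HERC1, CAND1 and FRYL lie at the edge of a narrow cloud of well-expressed genes, while HIST2H3C and HIST2H3A lie at the top and bottom of the plot.

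SYNE2 encodes nesprin-2, a giant spectrin-repeat protein that ties the nuclear envelope to the cytoskeleton (chromosome 14, 63852983 to 64226433, GRCh38). Its level was 6816 and 6908 in EPZ-6438 libraries, against 4960.0 and 4687 in DMSO libraries. Both EPZ-6438 libraries were above both DMSO libraries, and the groups did not overlap. SYNE2 rose by 0.51 ± 0.04 on the log2 scale (adjusted p = 0.026). HERC1, a giant HECT-domain ubiquitin ligase (chromosome 15, 63608618 to 63833942), had 6720.0 and 6379.5 in EPZ-6438 libraries, against 4795 and 4709 in DMSO libraries. The groups again did not overlap, and HERC1 rose by 0.46 ± 0.04 (adjusted p = 0.0403).

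CAND1 exchanges the substrate receptors of cullin-RING ubiquitin ligases (chromosome 12, 67269281 to 67319951), and its level was 12095 and 12273 in EPZ-6438 libraries, against 15163 and 15195 in DMSO libraries. Every EPZ-6438 library was lower than every DMSO library. The log2 fold change was -0.32 ± 0.02 (adjusted p = 0.026). FRYL, a homologue of the fly gene furry, whose product works with NDR kinases in the fly (chromosome 4, 48497361 to 48780322), had 2502 and 2467 in EPZ-6438 libraries, against 3403 and 3426 in DMSO libraries. Its groups did not overlap, and its log2 fold change was -0.46 ± 0.04 (adjusted p = 0.0463, which was 0.0517 after quantile normalisation). These 4 genes share long transcripts. The longest annotated transcript is 21842 nt for SYNE2, 15137 nt for HERC1, 11706 nt for FRYL and 11251 nt for CAND1, and that of CAND1, the shortest of these, is longer than the transcripts of 97.5% of the annotated genes in the upper 50% by level.

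**Figure D2:**
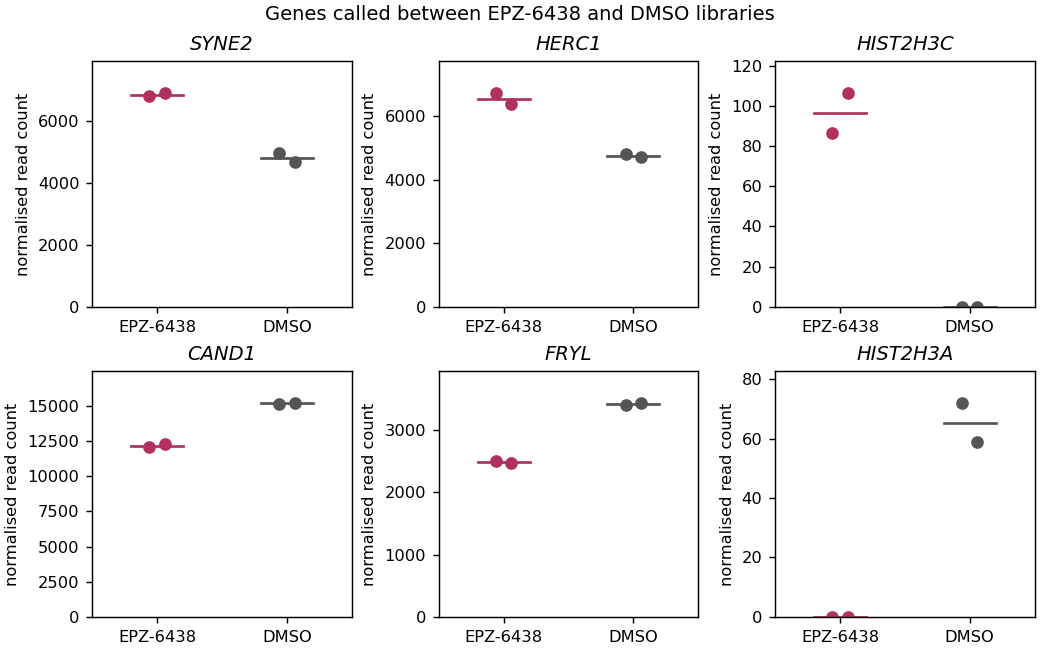
Normalised read count (vertical axis, from 0) of each called gene in the 2 EPZ-6438 libraries (red, left) and the 2 DMSO libraries (grey, right), 1 point per library with the group mean as a bar. No gene has overlapping groups, and the histone copies are each at 0 in one of the groups.

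The histone copies swapped places between the groups. HIST2H3C had 86.3 and 106.3 in EPZ-6438 libraries and was listed at 0 in both DMSO libraries (adjusted p = 0.026 by limma). HIST2H3A was listed at 0 in both EPZ-6438 libraries and had 71.9 and 58.9 in DMSO libraries (adjusted p = 0.026, and 0.0566 by limma on log2 counts with a pseudocount of 0.1). Since the transcripts printed in part above do not differ, reads cannot be assigned to either copy, and only the sum can be compared. The sum was 96.3 ± 14.1 with EPZ-6438 and 65.4 ± 9.19 with DMSO (SD, n = 2 each). This is a difference of 0.55 in log2. Its groups did not overlap, but the smallest two-sided exact permutation p that 2 against 2 allows is 0.333. MS8815N libraries had the same copy at 0 as EPZ-6438 libraries, with HIST2H3A at 0 in both and HIST2H3C at 82.5 and 104.2. The copy at 0 also differed within a group, since MS8815 replicate 1 had HIST2H3C at 0 and MS8815 replicate 2 had HIST2H3A at 0. HIST2H2AA3 and HIST2H2AA4, another pair of neighbouring copies that was picked after its values were seen, had the same kind of zeros inside both groups. HIST2H2AA3 was at 0 and 166 in EPZ-6438 libraries, against 98.5 and 0 in DMSO libraries, and HIST2H2AA4 at 184 and 50.6 in EPZ-6438 libraries, against 73.9 and 165 in DMSO libraries. Of 28 replication-dependent histone genes in the table, 2 of them in the upper 50% by level, 14 were higher and 2 lower with groups that did not overlap. These counts include HIST2H3C and HIST2H3A. Over the lower 50% of genes by level the shares were 29.6% higher and 10.5% lower, with a median log2 fold change of 0.18. The median of the histone list was 0.21. It was 0.02 after quantile normalisation and 0.16 after a trend with GC content and length was removed. HIST1H2BK, a histone H2B gene, had 523 and 565 in EPZ-6438 libraries, against 444 and 467 in DMSO libraries (0.25 ± 0.09, adjusted p = 0.251).

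The transcripts of the PRC2 core were near their DMSO levels. EZH2 mRNA was at 4332 and 4380.1 in EPZ-6438 libraries, against 4184 and 4414 in DMSO libraries. The groups overlapped, and the log2 fold change was 0.02 ± 0.04 (adjusted p = 0.86). Of the 6 core genes (EZH2, EZH1, EED, SUZ12, RBBP4 and RBBP7) none was called and 2 were lower at an unadjusted p under 0.05. All 6 were in the upper 50% by level, and 5 were lower and none higher without overlap, against 37.1% lower and 18.9% higher over the genes of that level. The median was -0.13. It was -0.08 after quantile normalisation and -0.06 after a trend with GC content and length was removed. SUZ12, the scaffold of the complex, had 2972 and 2788 in EPZ-6438 libraries, against 3158 and 3183 in DMSO libraries (-0.14 ± 0.05, adjusted p = 0.219). EED, which reads the methyl mark and stimulates EZH2, had 446 and 383 in EPZ-6438 libraries, against 460.0 and 479 in DMSO libraries (-0.18 ± 0.11, adjusted p = 0.468). EZH1, the second catalytic subunit, had 452 and 483 in EPZ-6438 libraries, against 505 and 517 in DMSO libraries (-0.13 ± 0.09, adjusted p = 0.539). Of 7 accessory subunit genes in the table, 6 of them in the upper 50% by level, none was called, and 3 were higher and 2 lower without overlap (18.9% and 37.1% over genes of that level). The widest difference among them was at C17orf96 (EPOP), a partner of PRC2 in the lower 50% by level, with 274 and 272 in EPZ-6438 libraries, against 122 and 148 in DMSO libraries. Its groups did not overlap, and the difference was not called (1.01 ± 0.15, adjusted p = 0.0698). The others included MTF2 at -0.17 ± 0.05, AEBP2 at -0.17 ± 0.06, PHF19 at 0.14 ± 0.05 and JARID2 at 0.19 ± 0.11.

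The complex that reads the mark, PRC1, and the enzymes that oppose it held a few larger differences, none of them called over all genes. CBX2, a chromodomain subunit that binds methylated lysine 27, had 1189 and 1143 in EPZ-6438 libraries, against 885 and 857 in DMSO libraries. PHC3, a polyhomeotic subunit, had 1053 and 948 in EPZ-6438 libraries, against 1429.5 and 1498 in DMSO libraries. CBX2 was higher and PHC3 lower in both EPZ-6438 libraries than in either DMSO library. Their log2 fold changes were 0.42 ± 0.07 (adjusted p = 0.0808) and -0.55 ± 0.07 (adjusted p = 0.0624), and both passed when the lower 50% of genes by level was removed (adjusted p = 0.0394 and 0.0315). Over the 20 PRC1 genes, 18 of them in the upper 50% by level, 9 were higher and 4 lower without overlap (18.9% and 37.1% over genes of that level), with a median of 0.07. Among 12 genes of H3K27 demethylases and opposing methyltransferases, KMT2A, an H3K4 methyltransferase, was at 0.19 ± 0.04 and WHSC1L1 (NSD3), an H3K36 methyltransferase, at -0.30 ± 0.04, and both passed with that filter (adjusted p = 0.0494 and 0.0336). KDM6B, a demethylase of lysine 27, had 1694 and 1620.3 in EPZ-6438 libraries, against 2155 and 1828 in DMSO libraries (-0.26 ± 0.08, adjusted p = 0.206).

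Genes reported as EZH2 targets were mostly at low levels in these cells. Of 15 genes in the table from a list of 17 reported EZH2-repressed genes, none was called (2 were higher at an unadjusted p under 0.05), 9 were higher and 1 lower without overlap, and the median log2 fold change was 0.56. That median was 0.38 after quantile normalisation and 0.61 after a trend with GC content and length was removed. Only 3 of the 15 were in the upper 50% by level. Over the lower 50% of all genes the median was 0.18, and 29.6% were higher and 10.5% lower without overlap. CDKN1A, which encodes the cell-cycle inhibitor p21, had 221 and 173 in EPZ-6438 libraries, against 158 and 143 in DMSO libraries. The groups did not overlap, and the difference was not called (0.38 ± 0.17, adjusted p = 0.345). PRDM1, the regulator of plasma-cell differentiation, had 42.9 and 21.3 in EPZ-6438 libraries, against 16 and 19.9 in DMSO libraries (0.73 ± 0.43, adjusted p = 0.451), and its EPZ-6438 replicates differed from each other by more than the lower of them differed from DMSO. SESN1, a stress-induced brake on mTORC1, had 128 and 121 in EPZ-6438 libraries, against 75.5 and 93.5 in DMSO libraries (0.56 ± 0.19, adjusted p = 0.227). CIITA, the master regulator of MHC class II, had 60.4 and 73.3 in EPZ-6438 libraries, against 81.9 and 22 in DMSO libraries, and its groups overlapped (0.63 ± 0.56, adjusted p = 0.686).

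Of 30 polycomb-regulated developmental transcription factors 15 were in the table, and all 15 were in the lower 50% by level. None was called (1 was higher at an unadjusted p under 0.05), 7 were higher and 1 lower without overlap (29.6% and 10.5% over genes of that level), and the median was 0.75. It was 0.56 after quantile normalisation and 0.76 after a trend with GC content and length was removed. KLF4, a factor of epithelial differentiation, had 44.5 and 27.6 in EPZ-6438 libraries, against 9.89 and 16.3 in DMSO libraries, and HOXB4, a homeobox gene, had 2.88 and 5.65 in EPZ-6438 libraries, against 0.972 and 0.95 in DMSO libraries. Their adjusted p-values were 0.193 and 0.413 by limma. The sum over the 15 genes was 396 and 320.0 in EPZ-6438 libraries, against 278 and 209.7 in DMSO libraries. At these levels a few reads decide a fold change.

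**Figure D3:**
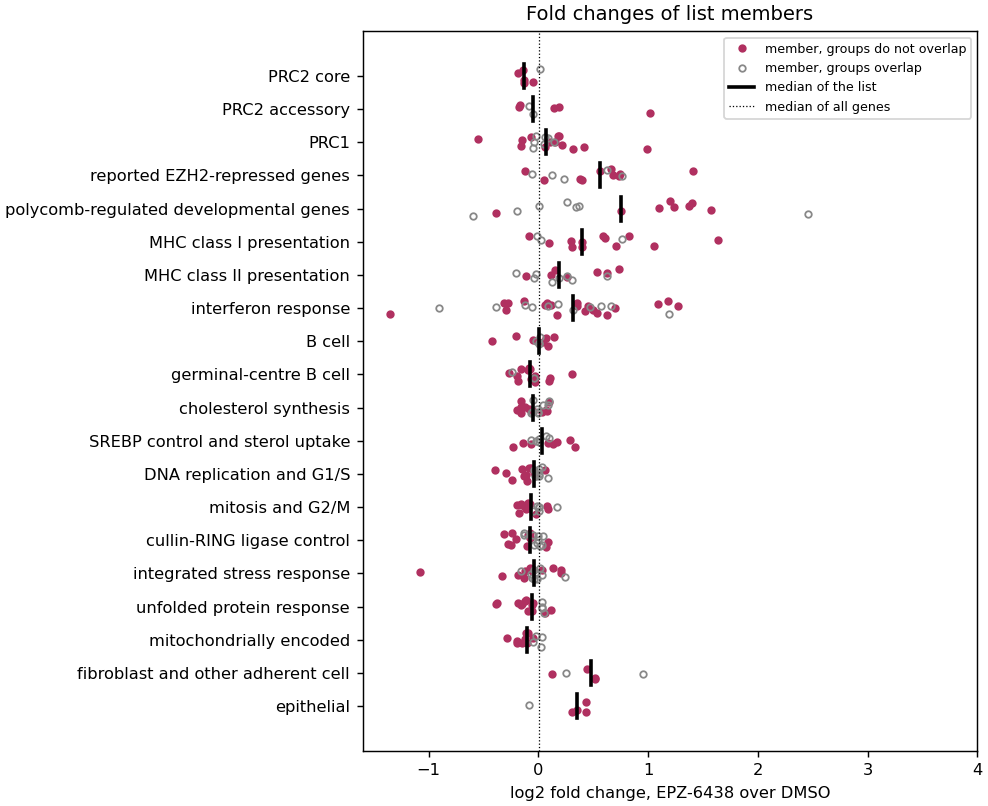
Log2 fold change of EPZ-6438 over DMSO (horizontal axis) of the members of 20 gene lists (rows), with filled points where the groups do not overlap, open points where they do, a black bar at the median of each list and a dotted line at the median of all genes. The MHC class I bar is at 0.40 and the PRC2 core bar at -0.13, and the widest rows are those of genes with low levels.

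Genes of MHC class I presentation, which loads peptides onto surface molecules for T cells, were mostly higher. Of 15 genes 11 were higher and 1 lower without overlap (24.3% and 23.8% over all genes), and the median was 0.40. It was 0.43 after quantile normalisation and 0.47 after a trend with GC content and length was removed. None was called, and 9 were higher at an unadjusted p under 0.05. HLA-B, a classical class I heavy chain, had 569 and 515 in EPZ-6438 libraries, against 351 and 311 in DMSO libraries. Both EPZ-6438 libraries were above both DMSO libraries, and the log2 fold change was 0.71 ± 0.11 (adjusted p = 0.0808, and 0.0393 with the lower 50% of genes removed). HLA-C, another heavy chain, had 3648 and 3631 in EPZ-6438 libraries, against 3072 and 2865 in DMSO libraries (0.29 ± 0.05, adjusted p = 0.0808, and 0.0389 with that filter). PSMB8, an immunoproteasome subunit that cuts peptides for presentation, had 446 and 429 in EPZ-6438 libraries, against 266 and 317 in DMSO libraries (0.59 ± 0.12, adjusted p = 0.105). ERAP1, which trims peptides in the endoplasmic reticulum, had 544 and 707 in EPZ-6438 libraries, against 452 and 364 in DMSO libraries (0.61 ± 0.16, adjusted p = 0.151).

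MHC class II genes had 6 of 15 higher and 1 lower without overlap, with a median of 0.19 as deposited. It was 0.06 after quantile normalisation and 0.17 after a trend with GC content and length was removed. Only 6 of the 15 were in the upper 50% by level. The shares were 24.3% and 23.8% over all genes, and 29.6% and 10.5% over the lower 50%. CD74, the invariant chain that guides class II molecules, had 13467 and 13440.4 in EPZ-6438 libraries, against 11906 and 12247 in DMSO libraries (0.16 ± 0.03, adjusted p = 0.0864, and 0.0431 with the lower 50% of genes removed). HLA-DRA, a class II heavy chain, had 130.4 and 126 in EPZ-6438 libraries, against 75.8 and 77.9 in DMSO libraries (0.73 ± 0.18, adjusted p = 0.13). The interferon response list was mixed, with 15 of 31 higher and 5 lower without overlap. Only 5 of its members were in the upper 50% by level, and over the lower 50% the shares were 29.6% and 10.5%. IFIT1, an interferon-induced RNA-binding protein, had 48.9 and 36.2 in EPZ-6438 libraries, against 17.5 and 16.1 in DMSO libraries (1.27 ± 0.33, adjusted p = 0.152), while MX2, an interferon-induced GTPase, was at -0.31 ± 0.10 (adjusted p = 0.197).

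No marker of epithelial or other adherent cells was called over all genes. Of 5 epithelial markers in the table, from a list of 7, 4 were higher and none lower without overlap (29.6% and 10.5% over the lower 50% of genes by level, where 4 of the 5 lie), with a summed level of 1019 and 871 in EPZ-6438 libraries, against 774 and 693 in DMSO libraries. CDH1 and KRT5 were not among the genes of the table. Of 6 markers of fibroblasts and other adherent cells, from a list of 9, 4 were higher and none lower without overlap (24.3% and 23.8% over all genes), with a sum of 15111 and 15262 in EPZ-6438 libraries, against 13736 and 13713 in DMSO libraries, most of it VIM. VIM, an intermediate filament gene that these cells also express with DMSO, had 14186 and 14212 in EPZ-6438 libraries, against 12901 and 13078 in DMSO libraries (0.13 ± 0.02, adjusted p = 0.0946, and 0.0468 with the lower 50% of genes removed). KRT8, a keratin, had 382 and 342 in EPZ-6438 libraries, against 299 and 287 in DMSO libraries (0.30 ± 0.11, adjusted p = 0.26), and CAV1, the caveolar coat protein, had 419 and 462 in EPZ-6438 libraries, against 361 and 289 in DMSO libraries (0.45 ± 0.14, adjusted p = 0.189). On the scale of the EPZ-6438 table MS8815 libraries had 4921 and 4878 for KRT8, 5871 and 6078 for CAV1 and 4319 and 4632 for HLA-B. MS8815N libraries had 379 and 416 for KRT8, 633 and 454 for CAV1 and 497 and 504 for HLA-B. The part of these markers in the differences of class I genes was not tested. In bulk RNA, fewer cells of a type and less RNA per cell cannot be told apart. Markers of T and NK cells (4 of 8 in the table) summed to 195 and 183 in EPZ-6438 libraries, against 172 and 140.3 in DMSO libraries, and myeloid markers (4 of 6) to 201 and 267 in EPZ-6438 libraries, against 203 and 270.3 in DMSO libraries.

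B-cell identity genes lay near their DMSO levels. None of 11 was called (the unadjusted p was under 0.05 for 1 higher and 2 lower genes), 4 were higher and 3 lower without overlap (18.9% and 37.1% over the upper 50% by level, where all 11 lie), and the median was 0.01. MS4A1, which encodes CD20, had 16132 and 15995 in EPZ-6438 libraries, against 15814 and 16051 in DMSO libraries, with overlapping groups (0.01 ± 0.02, adjusted p = 0.848). PAX5, the factor that maintains B-cell identity, had 4798 and 4879 in EPZ-6438 libraries, against 7360.0 and 5699 in DMSO libraries (-0.42 ± 0.10, adjusted p = 0.151), and its DMSO replicates differed more from each other than its EPZ-6438 replicates did. Of 15 germinal-centre genes, 14 of them in the upper 50% by level, 3 were higher and 10 lower without overlap (18.9% and 37.1% over genes of that level). The median was -0.08. It was -0.03 after quantile normalisation and -0.04 after a trend with GC content and length was removed. With the lower 50% of genes removed, 2 of these 15 and 2 of 15 B-cell receptor signalling genes were called lower, beside 2.39% of the genes tested. GNA13, a G-protein subunit that confines germinal-centre B cells, had 10834 and 10366 in EPZ-6438 libraries, against 12357 and 11877 in DMSO libraries (-0.19 ± 0.03, adjusted p = 0.0902, and 0.0434 with the lower 50% of genes removed). P2RY8, a receptor that signals through GNA13, had 8722 and 8618 in EPZ-6438 libraries, against 9837 and 9504 in DMSO libraries (-0.16 ± 0.03, adjusted p = 0.0963, and 0.0477 with that filter). In B-cell receptor signalling, BTK, the Bruton kinase, had 6214 and 6135 in EPZ-6438 libraries, against 6973 and 6979.8 in DMSO libraries (-0.18 ± 0.03, adjusted p = 0.0883, and 0.0434 with that filter), and PIK3AP1, an adaptor for PI3-kinase, was at -0.26 ± 0.05 (adjusted p = 0.0983, and 0.0477 with that filter).

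Genes of sterol synthesis, which SREBP2 (named in the title of the study) controls, differed by small amounts. Of 21 cholesterol synthesis genes none was called (6 were lower and none higher at an unadjusted p under 0.05), and 4 were higher and 8 lower without overlap. These shares are near the 18.9% and 37.1% of all genes in the upper 50% by level, where the whole list lies. The median was -0.04, near that of the upper 50% of genes. It turned to 0.02 after quantile normalisation and was -0.01 after a trend with GC content and length was removed. SQLE, squalene epoxidase, had 5094 and 5054 in EPZ-6438 libraries, against 5746 and 5842 in DMSO libraries. IDI1, an isomerase of the mevalonate pathway, had 6859 and 6987 in EPZ-6438 libraries, against 7772 and 7713 in DMSO libraries. In both the groups did not overlap and the EPZ-6438 libraries were lower. Their log2 fold changes were -0.19 ± 0.03 and -0.16 ± 0.03, with adjusted p-values of 0.0881 and 0.0921, and of 0.0434 and 0.0457 with the lower 50% of genes removed. SREBF2, the gene of SREBP2, the transcription factor that switches on sterol synthesis, had 12551 and 12516 in EPZ-6438 libraries, against 13139.5 and 13166 in DMSO libraries (-0.07 ± 0.02, adjusted p = 0.223). INSIG1, which retains the SREBP escort protein in the endoplasmic reticulum, had 3354 and 3320.0 in EPZ-6438 libraries, against 3203 and 3079 in DMSO libraries (0.09 ± 0.04, adjusted p = 0.355).

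Cell-cycle genes differed by small amounts. None was called over all genes, and 6 passed, all lower, with the filter on level, where 2.39% of the genes tested were called lower. Of 20 DNA replication and G1/S genes 1 was higher and 10 were lower without overlap, beside 18.9% higher and 37.1% lower over the upper 50% of genes. Their median was -0.04. It was 0.01 after quantile normalisation and -0.05 after a trend with GC content and length was removed. RRM2, the regulated subunit of ribonucleotide reductase, had 12041 and 13805 in EPZ-6438 libraries, against 15550.5 and 16007 in DMSO libraries (-0.29 ± 0.06, adjusted p = 0.0995, and 0.0477 with that filter). CCNE2, a G1/S cyclin, had 933 and 859 in EPZ-6438 libraries, against 1201 and 1158 in DMSO libraries (-0.40 ± 0.07, adjusted p = 0.0921, and 0.045 with that filter). RRM1, the large subunit of the reductase, also passed with it (-0.24 ± 0.04, adjusted p = 0.0434). Of 18 mitosis and G2/M genes, all in the upper 50% by level, 2 were higher and 10 lower without overlap. Their median was -0.06. It was 0 after quantile normalisation and -0.05 after a trend with GC content and length was removed. Among the lower genes were CCNA2, the S and G2 cyclin, at -0.16 ± 0.03, and BUB1B, a spindle checkpoint kinase, at -0.19 ± 0.03. With the filter CCNA2, BUB1B and the spindle motor gene KIF11 had adjusted p-values of 0.0457, 0.04 and 0.0434. MKI67, the proliferation marker Ki-67, was on the other side, with 26693 and 26800.5 in EPZ-6438 libraries, against 25171 and 25126 in DMSO libraries (0.09 ± 0.02, adjusted p = 0.122).

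No further gene of the pathways around SYNE2, HERC1, CAND1 and FRYL was called over all genes. Most members of their lists are in the upper 50% by level, where 18.9% of all genes were higher and 37.1% lower without overlap, and each list counts the called gene it was built around. Of 22 genes of cullin-RING ligase control 2 were higher and 10 lower without overlap, with a median of -0.07. It was -0.01 after quantile normalisation and -0.02 after a trend with GC content and length was removed. CUL4B, a cullin scaffold, had 6042 and 5907 in EPZ-6438 libraries, against 6903 and 6879 in DMSO libraries (-0.21 ± 0.03, adjusted p = 0.0753), and CUL2 and DCUN1D1, a neddylation factor, were at -0.24 ± 0.04 and -0.28 ± 0.05. These 3 passed with the filter on level (adjusted p = 0.0378, 0.0412 and 0.0457), where 2.39% of the genes tested were called lower. Of 21 HERC and other HECT ligases 4 were higher and 9 lower, with TRIP12, a ligase of nuclear substrates, at -0.32 ± 0.05 (adjusted p = 0.0816, and 0.0389 with that filter). Of 14 genes of the FRY and NDR kinase pathway 2 were higher and 7 lower, and the NDR kinase activators MOB1A and MOB1B were at -0.18 ± 0.03 and -0.28 ± 0.05 (adjusted p = 0.0434 and 0.045 with that filter). In the nuclear envelope list of 14 genes, 4 were higher and 7 lower, with TMPO, a lamina-associated protein, at -0.14 ± 0.03 (adjusted p = 0.0477 with that filter) and LMNA, which encodes lamins A and C, at 0.33 ± 0.12.

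No protein-folding gene was called over all genes, while 6 passed with the filter on level, where 3.09% of the genes tested were called. Of 17 unfolded protein response genes, 16 of them in the upper 50% by level, 2 were higher and 11 lower without overlap (18.9% and 37.1% over genes of that level), with a median of -0.06. HSPA5 (BiP), the main chaperone of the endoplasmic reticulum, had 32983 and 32599.7 in EPZ-6438 libraries, against 35463 and 35866 in DMSO libraries (-0.12 ± 0.02, adjusted p = 0.0864, and 0.0432 with that filter). HYOU1, its cofactor, had 2915 and 3295 in EPZ-6438 libraries, against 3956 and 4098 in DMSO libraries (-0.38 ± 0.06, adjusted p = 0.0808, and 0.0389 with the filter), and SEL1L, part of the machinery that removes misfolded proteins, was at -0.38 ± 0.07 (adjusted p = 0.0488 with the filter). CANX, the lectin chaperone calnexin, was at -0.15 ± 0.03 (adjusted p = 0.049 with the filter). Among 14 heat shock protein genes, 12 of them in the upper 50% by level, 3 were higher and 10 lower without overlap. HSPD1, the mitochondrial chaperonin, had 42515 and 42518 in EPZ-6438 libraries, against 48387 and 48998 in DMSO libraries (-0.20 ± 0.02, adjusted p = 0.0548, and 0.0216 with the filter). HSPB1, a small heat shock protein, was higher, with 1109.5 and 1212 in EPZ-6438 libraries, against 737 and 734 in DMSO libraries (0.66 ± 0.08, adjusted p = 0.0558, and 0.0274 with the filter), and MS8815 libraries had 3179 and 3468 of it.

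The rule for large differences named 10 genes on each side of the upper 50% by level. None was called over all genes, and 8 of the 20 passed when the lower 50% of genes by level was removed, 4 higher and 4 lower. The most negative was TBCE, a tubulin-folding cofactor, with 118 and 274 in EPZ-6438 libraries, against 343 and 384 in DMSO libraries (-1.01 ± 0.35, adjusted p = 0.203). INTS2, a subunit of the Integrator complex, had 278 and 446 in EPZ-6438 libraries, against 564 and 808 in DMSO libraries (-0.94 ± 0.25, adjusted p = 0.15), and SP4, a zinc-finger transcription factor, had 399 and 432 in EPZ-6438 libraries, against 700.2 and 684 in DMSO libraries (-0.73 ± 0.09, adjusted p = 0.0567, and 0.0293 with that filter). In each of these the EPZ-6438 libraries were both lower. On the higher side, SBF2, a myotubularin-family protein, had 229.7 and 418 in EPZ-6438 libraries, against 112 and 166 in DMSO libraries (1.18 ± 0.30, adjusted p = 0.166), and INTS6L, a relative of an Integrator subunit, had 477 and 449.8 in EPZ-6438 libraries, against 269 and 274 in DMSO libraries (0.77 ± 0.10, adjusted p = 0.0679, and 0.0336 with that filter). TTN, which encodes the muscle protein titin and has a very long transcript, had 996 and 1161 in EPZ-6438 libraries, against 528 and 654 in DMSO libraries (0.87 ± 0.12, adjusted p = 0.0697, and 0.0336 with that filter). SRGAP2B and PKD1P1, at 1.04 ± 0.32 and 0.92 ± 0.24, are near-copies of other genes, so their reads are uncertain, and the overlapping read-through gene RBM14-RBM4, at -0.85 ± 0.12, shares exons with RBM14 and RBM4 (adjusted p = 0.0368 with that filter). The other genes named by the rule had log2 fold changes from -0.88 ± 0.13 to -0.62 ± 0.12 on the lower side, and from 0.76 ± 0.12 to 1.97 ± 0.44 on the higher side. Of these, CNOT6L, KCTD7, KCND1 and XXbac-B461K10.4 passed with the filter, with adjusted p-values of 0.0336, 0.0458, 0.0427 and 0.0434.

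The small differences varied with the base composition of transcripts. Over 8984 annotated genes of the upper 50% by level, the median log2 fold change was -0.095 in the bin of lowest GC content (31.3% to 38.1%) and 0.050 in the bin of highest (60.9% to 73.2%), of 10 bins of nearly equal size. In the lowest bin 72 genes were higher and 498 lower without overlap, and in the highest 393 were higher and 113 lower. Differences between replicates within a group had medians between -0.012 and 0.015 in every GC bin. In 10 bins by transcript length, the median of EPZ-6438 over DMSO was 0.012 in the shortest and -0.060 in the longest. DMSO replicate 2 minus replicate 1 also varied with length, at 0.038 in the shortest bin and -0.026 in the longest. EPZ-6438 replicate 2 minus replicate 1 was at -0.0019 and 0.015 there. Across genes the log2 fold change had a Pearson correlation of 0.32 and a Spearman correlation of 0.37 with GC content, a description only, since genes share libraries. The 64 genes higher with the filter had a median GC content of 56.7%, and the 219 lower ones 41.6%, against 47.4% over all genes of the upper 50%. When a trend with GC content and length was removed from the filtered values, limma called 52 genes, 20 higher and 32 lower. The adjusted p-values given for single genes with the filter on level are from the values before this removal. They do not show which of those genes stay called after it. MS8815N over DMSO, which shares the DMSO libraries, had medians of -0.068 in the lowest bin and 0.030 in the highest. Which step gives this pattern was not tested.

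**Figure D4:**
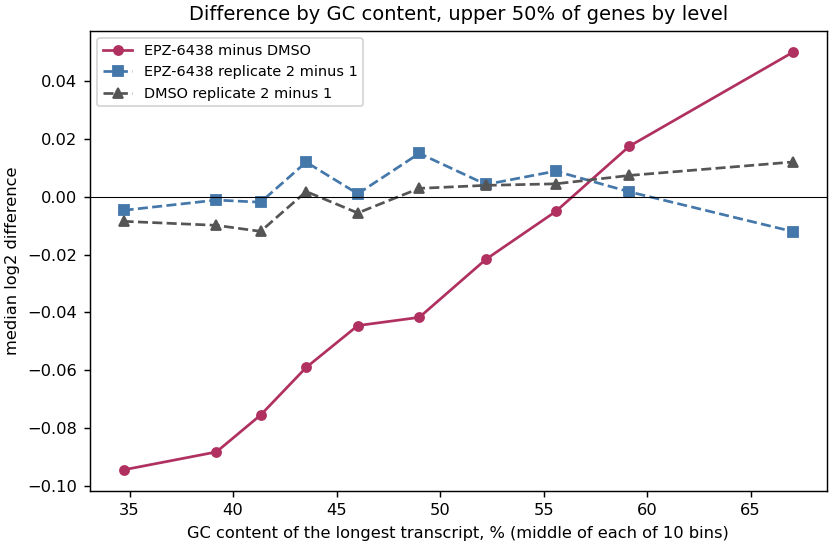
Median log2 difference (vertical axis) in 10 bins of 8984 genes by the GC content of the longest transcript (horizontal axis, %), for EPZ-6438 minus DMSO (red) and for replicate 2 minus replicate 1 of EPZ-6438 (blue) and of DMSO (grey). The red points lie at -0.095 in the first bin and 0.050 in the last, while the replicate lines stay between -0.012 and 0.015.

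EPZ-6438 was also set against MS8815N at the same dose and time, in a joined fit of both compounds and DMSO over 17884 genes. This is 1 pair of compounds, and p-values were adjusted over all genes. Limma called 71 genes (0.397%), 12 higher and 59 lower with EPZ-6438, and 1708 (9.55%) at an unadjusted p under 0.05. The count was 32 without EPZ-6438 replicate 1, 31 without EPZ-6438 replicate 2, 27 without MS8815N replicate 1 and 21 without MS8815N replicate 2. SYNE2 had 6816 and 6908 with EPZ-6438, 5762 and 5465 with MS8815N and 4960.0 and 4687 with DMSO. EPZ-6438 stood above MS8815N, with a difference of 0.29 (95% confidence interval 0.20 to 0.39, adjusted p = 0.0382). CNOT6L, a deadenylase that shortens mRNA tails, had 333 and 409.6 with EPZ-6438, 651 and 765 with MS8815N and 641 and 721 with DMSO. It was lower with EPZ-6438 by a difference of -0.93 (95% confidence interval -1.24 to -0.63, adjusted p = 0.0382). CAND1 had 12237 and 12669 with MS8815N and FRYL had 2371 and 2230, lower than in either DMSO library. MS8815N over the same DMSO libraries was -0.29 for CAND1 and -0.57 for FRYL, beside -0.32 and -0.46 with EPZ-6438. HERC1 had 4928 and 6155 with MS8815N, above both DMSO libraries, at 0.21 over DMSO beside 0.46 with EPZ-6438. CAND1, HERC1 and FRYL did not pass the test between EPZ-6438 and MS8815N. The difference was -0.03 (95% confidence interval -0.09 to 0.03, adjusted p = 0.757) for CAND1, 0.25 (95% confidence interval 0.05 to 0.45, adjusted p = 0.425) for HERC1 and 0.11 (95% confidence interval 0.01 to 0.22, adjusted p = 0.498) for FRYL.

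Genes of the integrated stress response and of the mitochondrial genome were among those that differed between the compounds. Of 23 genes of that response, which cells mount when translation initiation is restrained, 9 were called between the compounds (0.397% over all genes). The median of the list over DMSO was -0.04 with EPZ-6438 and 0.29 with MS8815N. PSAT1, an enzyme of serine synthesis, had 5073 and 4904 with EPZ-6438, 8270.0 and 8036 with MS8815N and 5208 and 5338 with DMSO. Its EPZ-6438 libraries lay near DMSO and below both MS8815N libraries, and the difference between the compounds was -0.71 (95% confidence interval -0.79 to -0.63, adjusted p = 0.000325). For SLC7A5, an amino acid transporter, the difference was -0.38 (95% confidence interval -0.43 to -0.33, adjusted p = 0.00036). For MTHFD2, a mitochondrial folate enzyme, it was -0.33 (95% confidence interval -0.42 to -0.25, adjusted p = 0.0104). Of 13 mitochondrially encoded genes 9 were called (0.397% over all genes), with a median over DMSO of -0.10 with EPZ-6438 and 0.11 with MS8815N. Between EPZ-6438 and DMSO 9 of the 13 were lower and 4 overlapped (37.1% were lower over the upper 50% by level). The summed levels overlapped, at 445483 and 465038 in EPZ-6438 libraries, against 459130 and 474736 in DMSO libraries. MT-ND2, a subunit of respiratory complex I, had 15433 and 16274 with EPZ-6438, 18798 and 18137 with MS8815N and 17779.8 and 18527 with DMSO, and the difference between the compounds was -0.22 (95% confidence interval -0.30 to -0.14, adjusted p = 0.0497). For EZH2 the difference was 0.05 (95% confidence interval -0.04 to 0.14, adjusted p = 0.756), and for SQLE it was 0.01 (95% confidence interval -0.07 to 0.08, adjusted p = 0.964), so neither was called between the compounds.

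**Figure D5:**
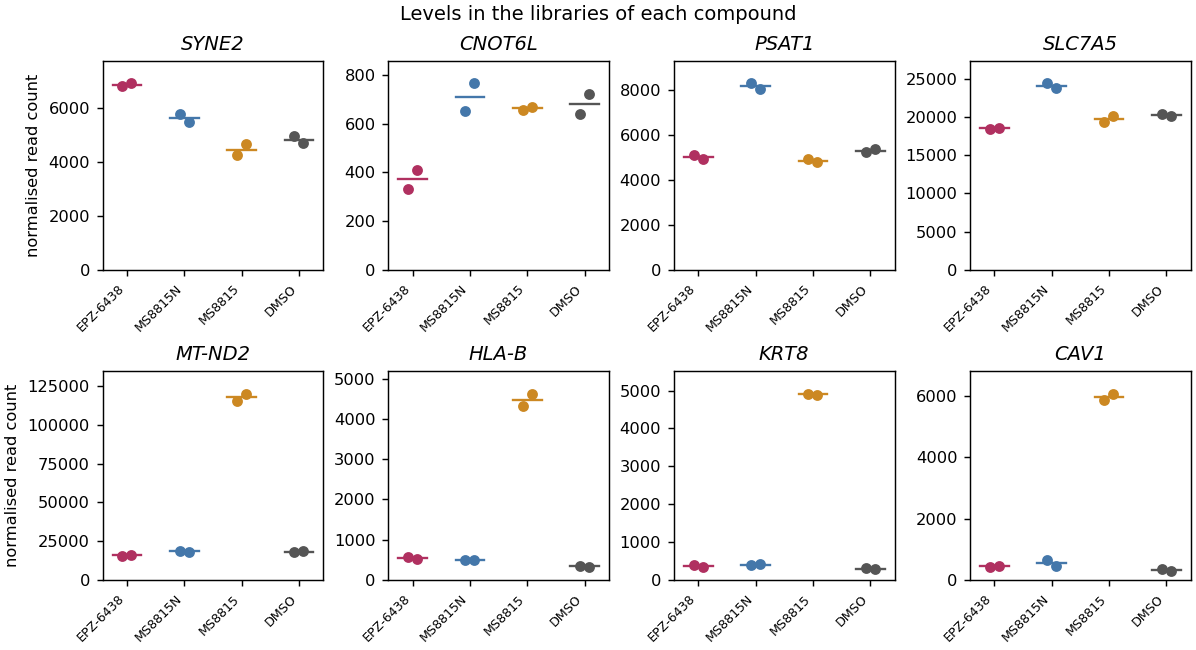
Normalised read count (vertical axis, from 0) of 8 genes in the 2 libraries each of EPZ-6438 (red), MS8815N (blue), MS8815 (orange) and DMSO (grey), on the scale of the EPZ-6438 table, with the mean as a bar. PSAT1 and SLC7A5 are highest with MS8815N, SYNE2 is highest and CNOT6L lowest with EPZ-6438, and HLA-B, KRT8, CAV1 and MT-ND2 stand far higher with MS8815 than in any other library.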

How the data were processed

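RNA from SUDHL6 cells was sequenced in 8 libraries, of which 4 enter the main comparison. STAR 2.4.2, Salmon and the GRCh38 build are listed in the submitters' processing notes. The authors deposited log2-type values, by the table names the variance-stabilising transform of DESeq2, made separately for each compound's table. The transform was inverted in closed form to normalised read counts. DMSO libraries shared by the tables then differed only by a gene constant and a library constant (largest deviation 7e-11 on the log2 scale), and other tables were put on the EPZ-6438 scale with these constants. A gene with no constant (24 in each joined table) was given the median constant of its table. Depth was estimated from low values that fall on whole multiples of 1 read (48.5% to 58.8% within a tolerance of 0.02).

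The main test was two-sided limma (version 3.58.1, R 4.3.3) with a trended prior variance on the deposited log2-type values, with 2 residual degrees of freedom and Benjamini-Hochberg adjustment over all genes. It was tested on simulated data. Log2 fold changes and standard errors are from limma on log2(normalised count + 1), which understates changes of low genes. EPZ-6438 and MS8815N were compared with limma in a joined fit of 6 libraries with 3 residual degrees of freedom. Lists have no test. Groups do not overlap where both libraries of one lie above both of the other. Members and lists were chosen with earlier results of these data known.

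The rule for named genes takes every called gene, a set of EZH2 and sterol genes, the 10 largest rises and 10 largest falls in the upper 50% by level (groups not overlapping, unadjusted p under 0.05), and up to 6 members with the smallest p of each of 47 lists plus textbook representatives. Not every gene that this rule takes is reported. Coordinates, lengths and GC content are from GENCODE 29 on GRCh38 and matched 15360 of 18320 genes (83.8%). Alternatives were another scaling, pseudocount, filter, prior and scale, a replicate block, removal of a GC and length trend, and leaving out each library.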

Additional observations from a re-analysis of the deposited data

Results flagged for a closer look

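Differences between EPZ-6438 and MS8815N that passed the test of the difference itself, in the joined fit by limma, were found in 13 of the named genes. Values are EPZ-6438 minus MS8815N on the log2 scale. EPZ-6438 was higher in SYNE2 (0.29) and MKI67 (0.19). It was lower in CNOT6L (-0.93), PSAT1 (-0.71), SLC7A5 (-0.38), MTHFD2 (-0.33), the chaperone genes CALR (-0.20), HSPA5 (-0.14) and HSPA8 (-0.084), and the mitochondrial genes MT-ATP6 (-0.22), MT-ND2 (-0.22), MT-CO2 (-0.21) and MT-ND5 (-0.19). Each compound has 2 libraries.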

How the results depend on the processing

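The count of 6 genes called between EPZ-6438 and DMSO was 11 after quantile normalisation, 25 by limma on log2(normalised count + 1), 169 without a trend in the prior variance and 283 when only the upper 50% of genes by level was tested. With a replicate block it was 10; same-numbered libraries did not deviate together (correlations between -0.031 and 0.025), so the numbers were not taken to pair samples. FRYL then had an adjusted p of 0.0512 by limma. Alternatives added after the data were seen gave 11 genes with a GC and length trend removed, 52 with that and the level filter, and 184 in the joined fit with MS8815N. Leaving out 1 library gave 0 to 0. The count of 71 genes between EPZ-6438 and MS8815N was 21 to 32 when 1 library was left out. A smaller set of tested genes lowers the adjustment; the cause of the other shifts was not tested. Among 293 named genes under 10 alternatives, no called gene changed sign, and 37 of 2858 values did so in 28 uncalled genes. With 2 libraries per group, small differences of low genes are not detectable at this depth.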

Other observations

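Immediate early and AP-1 genes, which cells switch on within minutes of a stimulus, were higher in 8 of 14 members and lower in 1 without overlap. The median log2 fold change was 0.27, and none was called. Only 6 of the 14 were in the upper 50% by level. The shares were 24.3% and 23.8% over all genes, and 29.6% and 10.5% over the lower 50%. FOSL1, a FOS-family subunit of AP-1, had 344 and 329 in EPZ-6438 libraries, against 258 and 252 in DMSO libraries (0.40 ± 0.11, adjusted p = 0.167 by limma). JUN, the AP-1 partner, had 684 and 674 in EPZ-6438 libraries, against 540.1 and 583 in DMSO libraries (0.28 ± 0.08, adjusted p = 0.191). Ribosomal protein genes lay at DMSO levels, with a median of 0 over 27 genes and values between -0.12 and 0.04.

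RN7SL1, the RNA of the signal recognition particle, which has no poly(A) tail, had 31282 and 29978 in EPZ-6438 libraries, against 25008 and 23676 in DMSO libraries (0.33 ± 0.03, adjusted p = 0.0548, and 0.0216 with the filter on level). MS8815N libraries had 35332 and 33371 and MS8815 libraries 427059 and 432378. Such RNAs, 11 in all with 3 in the upper 50% by level, were higher with EPZ-6438 without overlap in 7 cases and lower in none. Over the lower 50% of genes by level the shares were 29.6% and 10.5%.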
